A study of Mus musculus with 21 samples.

Results

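Cholesterol control and cholesterol movement were followed through 8 genes of the mouse spinal cord. Srebf1 and Srebf2 encode the SREBP transcription factors, Scap, Insig1 and Insig2 encode the proteins that release or retain them, and Stard4, Npc1 and Npc2 encode carriers that move cholesterol between membranes. They were picked by gene symbol from a list of 8 names, out of 25862 genes that occur in either kind of deposited table. Of these, 7 were among the 25127 genes with a value in every library. Srebf2 was not, so its values are those of the authors' deposited tables of group comparisons. Bulk spinal cord RNA was profiled in 21 C57BL/6 mice, in a study of what TDP-43, the RNA-binding protein encoded by Tardbp, does in oligodendrocytes. Knockout mice (cKO) had the genotype Cnp-Cre; Tardbp-fl/fl, heterozygous mice (cHET) were Cnp-Cre; Tardbp-fl/+, and control mice were Tardbp-fl/fl without Cre, so that every group carried floxed Tardbp. Cre was driven by Cnp, which is expressed in the oligodendrocyte lineage, and RNA was taken from whole cord, which also holds other cells. At postnatal day 21 (P21) there were 4 mice of each genotype, 2 female and 2 male. The later age, called P60, had 3 mice of each genotype. These were cKO males of 61, 61 and 64 days, cHET males of 65, 63 and 60 days, and control females of 74 days, so at P60 the comparison with control also crosses sex and age. Every library came from a mouse with its own number.

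Cells obtain cholesterol by making it or by taking it up, and the SREBP system sets both. SREBP precursors sit in the membrane of the endoplasmic reticulum bound to SCAP. When membrane cholesterol is low, SCAP escorts them to the Golgi, where proteases free the active factor, and when it is high, the INSIG proteins hold SCAP back. SREBP-2 chiefly drives genes of cholesterol synthesis and uptake, and SREBP-1c chiefly drives fatty acid synthesis genes. Cholesterol that enters by endocytosis leaves the lysosome through NPC2 and NPC1, and STARD4 carries sterol between membranes. In the central nervous system, where lipoprotein cholesterol from blood hardly enters, oligodendrocytes make large amounts of cholesterol for myelin.

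The stretches before the gene starts of Srebf2, Insig1 and Npc2 are shown because the first pair were lower in cKO cord at both ages and Npc2 was higher. Each is the 250 bases upstream of a RefSeq gene start on GRCm38.p6, written 5′ to 3′ on the strand of the gene. Capitals mark CCAAT, the NF-Y motif, on either strand (ATTGG on the strand shown), and TCACCCCA, a sterol regulatory element core that was chosen after the sequences were seen. Srebf2 lies on the plus strand (chr15:82147019-82147268), Insig1 on the plus strand (chr5:28071162-28071411) and Npc2 on the minus strand (chr12:84773113-84773362).
Srebf2: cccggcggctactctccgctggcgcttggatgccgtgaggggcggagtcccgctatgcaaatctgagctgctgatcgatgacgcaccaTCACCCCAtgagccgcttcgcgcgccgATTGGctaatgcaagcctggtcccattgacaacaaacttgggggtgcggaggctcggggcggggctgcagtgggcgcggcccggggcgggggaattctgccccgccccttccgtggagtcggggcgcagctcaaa
Insig1: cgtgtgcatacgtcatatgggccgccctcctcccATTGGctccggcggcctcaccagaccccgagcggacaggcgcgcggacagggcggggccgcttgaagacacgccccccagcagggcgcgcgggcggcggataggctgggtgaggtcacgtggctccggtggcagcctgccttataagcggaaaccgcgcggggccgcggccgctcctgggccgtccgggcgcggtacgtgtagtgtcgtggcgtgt
Npc2: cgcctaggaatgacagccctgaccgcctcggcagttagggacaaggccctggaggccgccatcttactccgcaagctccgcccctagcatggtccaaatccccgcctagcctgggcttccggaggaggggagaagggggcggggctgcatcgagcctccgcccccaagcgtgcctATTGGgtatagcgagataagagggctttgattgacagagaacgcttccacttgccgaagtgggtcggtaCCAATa
RefSeq entries matched 6 of the 8 genes, with 11 gene starts in all, and those without an entry were Stard4 and Npc1. The letters TCACNCCAC, the sterol regulatory element searched on both strands, were found in 0 of the 11 windows, and 1.05% of 32851 RefSeq windows of this length held them. TCACCCCA was found in 1 of the 11, at 162 bases before the Srebf2 start, and in 1.34% of all windows. CCAAT was found in 6 of the 11 and in 33.8% of all windows. In Srebf2 it stood 135 bases before the start, in Insig1 216 bases before, and in Npc2 at 75 and 6 bases before. Distances are to the RefSeq starts. By the GENCODE gene coordinates given below, Srebf2, Insig1 and Npc2 each begin inside their window, and the Npc2 match at 6 bases lies within the gene. GGGCGG, the Sp1 motif, was found in 8 of the 11 windows and in 32.7% of all. CANNTG, the E-box, was found in 9 of the 11 and in 66.2% of all. The 11 windows are not separate, since a gene had up to 3 starts and the 2 Scap windows overlap. A match describes the letters of a window and shows no binding.

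The deposited values are normalized scaled reads per base of each gene, so levels can be set side by side between genes. Between 20366 and 20880 genes were above 0 in the P21 libraries and between 19645 and 20138 in the P60 libraries, and because the values are normalized the read depth behind them is unknown. The libraries of the 2 ages were made with different kits, so age and kit cannot be told apart, and levels are compared within an age only. The tissue markers were as labelled, with all 6 posterior Hox genes of the cord present. They summed to 8768 to 11604 per library at P21 and 4185 to 5175 at P60. In this sum every cKO library lay below every other library of its age, at 8768 to 9640 at P21 and 4185 to 4493 at P60. Against cHET 2 of the 6 fell by limma at P21 and 1 at P60, beside 22.6% and 25.0% of all genes. The 4 forebrain genes summed to 175 to 275 in 11 of the P21 libraries and to 124 to 195 at P60. The remaining P21 library, cHET 1, stood apart with a forebrain sum of 657, and without it Srebf1 was the one gene of the 7 to lose a call, in cKO against cHET (log2 0.33, adjusted p = 0.082). The targeted gene, Tardbp, had a log2 change in cKO against cHET cord of -0.29 at P21 (limma, adjusted p = 0.0025), and at P60 this was -0.20 (adjusted p = 0.04), and all cKO libraries lay below all cHET libraries at both ages. In the authors' deposited table the P60 difference had q = 0.063. Against control Tardbp stood at -0.37 in cKO cord at P21 (adjusted p = 0.00033), but at P60 it stood at -0.14 with overlapping libraries (adjusted p = 0.14). In cHET against control it was not called, at -0.08 at P21 (adjusted p = 0.81) and 0.06 at P60 (adjusted p = 0.99). Cnp, the gene whose promoter drives Cre, had a log2 change in cHET against control cord of -0.85 at P21 (adjusted p = 9.5e-05) and -0.78 at P60 (adjusted p = 0.0011). In cKO against control it stood at -0.68 (limma, adjusted p = 4.2e-06) and -0.42 (adjusted p = 0.00038). Against cHET, cKO cord stood at 0.17 (adjusted p = 0.084) and 0.36 (adjusted p = 0.0011). Comparisons with control thus also cross the presence of Cre and a lower Cnp level at both ages. Of the P60 libraries, control 1 stood apart in 4 erythrocyte genes, which summed to 39545 there and to 8139 to 10161 in the other controls, and cHET 2 stood apart in 5 Schwann cell genes, which summed to 1711 there and to 790.2 and 796 in the other cHET libraries. Leaving out either of these P60 libraries changed no call of the 7 genes with library values.

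Most of the 8 genes differed in cKO cord, in both directions, and none passed the test in cHET cord. In cKO against cHET at P21, 5 of the 7 genes with library values passed the test (limma, adjusted p under 0.05), 2 up and 3 down, beside 22.6% of all 17989 tested genes. At P60, 4 of the 7 passed, 2 up and 2 down, beside 25.0% of 16833 genes. Against control cord the counts were 5 of 7 at P21, beside 26.9% of all genes, and 4 of 7 at P60, beside 25.9%. In cHET against control cord 0 of the 7 passed at either age, beside 0.0111% of all genes at P21 and 0.0178% at P60. In the authors' deposited tables, which include Srebf2, 6 of 8 genes had q under 0.05 in cKO against cHET at P21, beside 23.8% of all genes, and 5 of 8 at P60, beside 25.7%. Against control the authors' deposited tables called 6 of 8 at P21, beside 28.3%, and 5 of 8 at P60, beside 26.9%. The cKO libraries are shared by the comparisons with cHET and with control, so the counts are not separate evidence.

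**Figure D1:**
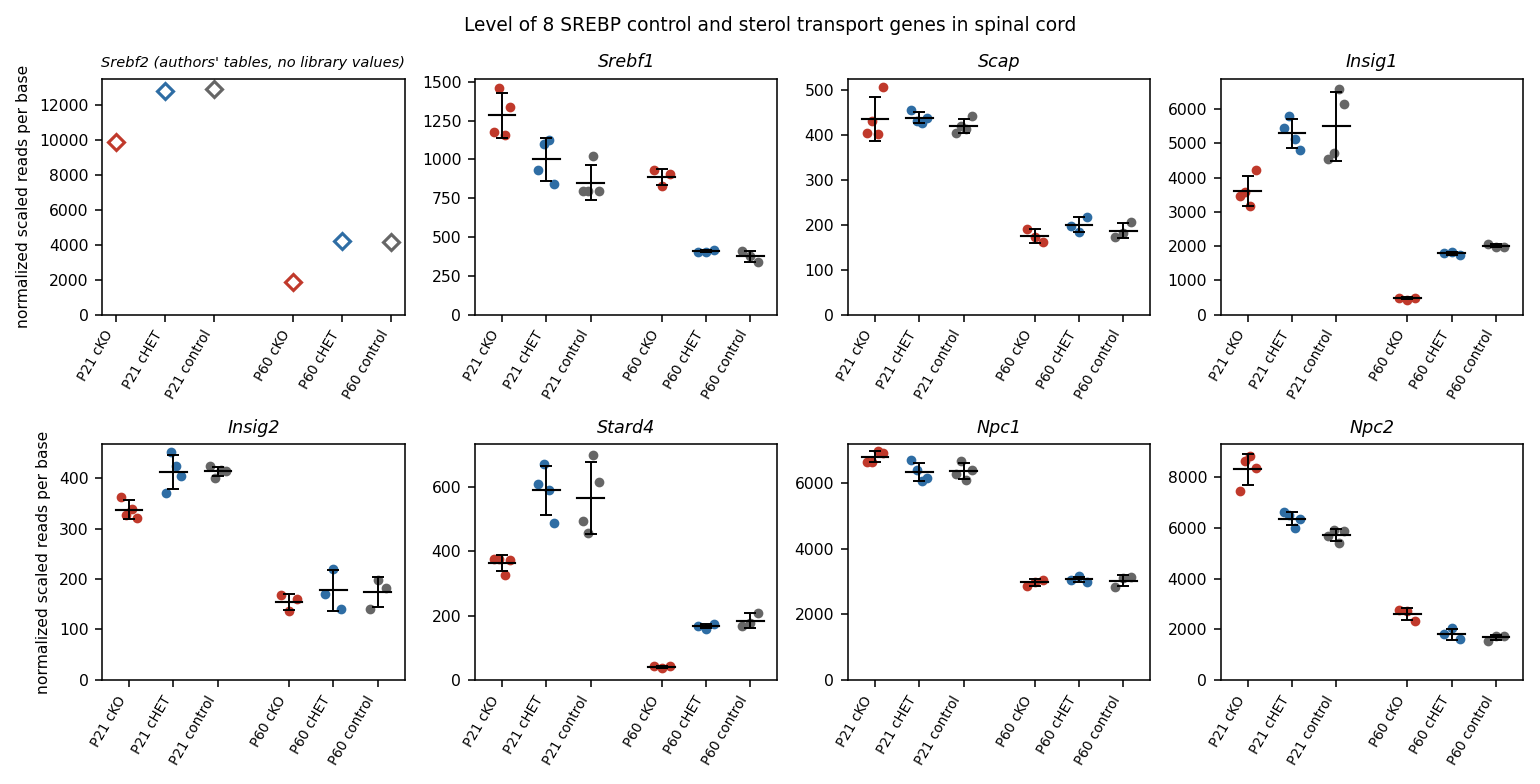
Level of each gene in normalized scaled reads per base (y axis, from 0) in every library, with P21 groups on the left and P60 groups on the right of each panel and cKO, cHET and control from left to right. Circles are libraries, bars are the mean and SD (4 libraries per group at P21, 3 at P60), and the open diamonds of Srebf2 are group levels from the authors' deposited tables without library values. At P60 Insig1 and Stard4 have cKO means of 471 and 41.4 against cHET means of 1785 and 168, and no library of these groups overlaps.

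Cell type markers moved beside these genes in cKO cord. Markers said to rise or fall were called by limma against cHET, beside 22.6% of all genes at P21 and 25.0% at P60. Of 10 mature oligodendrocyte markers, 2 rose and 6 fell against cHET at P21, and 2 rose and 8 fell at P60. Summed per library, they lay at 1799220 to 2121210 for cKO, 2347930 to 2628370 for cHET and 2090780 to 2392300 for control at P21. For P60 the sums were 302543 to 360041 (cKO), 505178 to 583764 (cHET) and 418814 to 466741 (control). The cKO sums thus lay below the cHET sums at both ages and overlapped control at P21. Of 10 microglia markers, 8 rose and 1 fell at P21, and 8 rose and 2 fell at P60. Microglia sums at P21 spanned 54697 to 77261 for cKO, 14095 to 16693 for cHET and 13752 to 15730 for control, and at P60 they spanned 26955 to 36028, 7532 to 8214 and 6444 to 7733 for the same genotypes. Every cKO library was above every other library of its age. All 5 reactive astrocyte markers rose at P21 and 4 of 5 at P60, of 8 astrocyte markers 5 and 3 rose, and of 5 oligodendrocyte precursor markers 3 and 5 rose. Of 9 neuron markers 8 fell at P21 and 5 at P60. Every marker of these 6 lists was above 0, and their part in the changes of the 8 genes was not tested.

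Srebf2, which encodes SREBP-2, was lower in cKO cord at both ages, and Srebf1, which encodes SREBP-1, was higher. From the authors' deposited tables, the Srebf2 level at P21 came to 9844 in cKO, 12809.9 in cHET and 12926 in control cord. At P60 the same tables gave 1846 in cKO, 4196 in cHET and 4123 in control cord. These are group levels solved from the mean and the effects in the authors' deposited tables, and they carry no SD. In those deposited tables the log2 change of cKO against cHET was -0.38 at P21 (SE 0.061, q = 8.5e-09) and -1.18 at P60 (SE 0.063, q = 1.7e-76), which is 0.768 and 0.440 times the cHET level. Against control the authors' deposited tables gave -0.39 (q = 2.0e-09) and -1.16 (q = 2.7e-73). These q-values come from the authors' test and are not to be ranked beside the limma values of the other genes. For Insig1 at P60 against cHET the authors' test gave q = 1.4e-150, where limma gave an adjusted p of 2e-08. In bulk cord, fewer cells of a type and less RNA per cell cannot be told apart.

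Srebf1 had 1180.0, 1463, 1155 and 1336 reads per base in the P21 cKO libraries, 930.4, 1101, 1127 and 843 in cHET, and 794, 797, 1019 and 795 in control. All cKO libraries lay above all others, although the lowest cKO library was close to the highest cHET library, and cHET overlapped control. It rose 1.29-fold against cHET (log2 0.36 ± 0.11 SE, adjusted p = 0.031) and 1.51-fold against control (log2 0.59, adjusted p = 0.0012). The call against cHET was lost without any 1 of cHET 1, cHET 4, cKO 2 or cKO 4 (adjusted p = 0.082, 0.085, 0.1 and 0.064) and without the filter on low values (adjusted p = 0.053). At P60 Srebf1 had 930.4, 829 and 903 reads per base in cKO, 406, 402 and 414 in cHET, and 408, 376 and 339 in control libraries. Here the cKO libraries stood far above the rest, at 2.17 times the cHET level (log2 1.12 ± 0.08 SE, adjusted p = 2.2e-06) and 2.37 times the control level (log2 1.25, adjusted p = 9.3e-07). Of the 5634 exonic bases of Srebf1 (ENSMUSG00000020538, GRCm38 chromosome 11, 60199089 to 60222581), 109 are shared with Rai1 on the other strand, and whether counting used strand is not given in the sources used here. Rai1 itself was not called, with log2 changes in cKO against cHET of 0.01 at P21 (adjusted p = 0.89) and 0.02 at P60 (adjusted p = 0.9).

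The ratio of Srebf1 to Srebf2 was highest in cKO cord at both ages, as a description without a test. With both levels taken from the authors' deposited tables, Srebf1 stood at 0.130 of the Srebf2 level in cKO cord at P21, 0.0775 in cHET and 0.0655 in control. At P60 this ratio of levels from the deposited tables was 0.480 in cKO, 0.0971 in cHET and 0.0906 in control. Srebf2 (ENSMUSG00000022463, chromosome 15, 82147181 to 82205379) was the more abundant of the pair in every group.

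Scap, the escort of the SREBP precursors, did not pass the test at either age. It had 404, 431, 403 and 508 reads per base in the P21 cKO libraries, 456, 432, 428 and 439 in cHET, and 405, 419, 414 and 441 in control. The groups overlapped, and the highest value of all was 1 cKO library. The log2 change of cKO against cHET was -0.01 with a 95% interval of -0.19 to 0.16 (adjusted p = 0.94). At P60 the levels averaged 175 ± 15.3 in cKO, 200.1 ± 16.6 in cHET and 186 ± 16.7 in control (SD, n = 3 each), with a log2 change against cHET of -0.19 (95% interval -0.43 to 0.05, adjusted p = 0.24). Scap (ENSMUSG00000032485, chromosome 9, 110333288 to 110384950) shares 985 of its 7443 exonic bases with 5830462I19Rik on the other strand, which is not in the table of library values.

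Insig1, which retains SCAP in the endoplasmic reticulum and is itself an SREBP target, fell at both ages. At P21 it had 3460.4, 3590.3, 3168 and 4235 reads per base in cKO libraries, 5445, 5813, 5133 and 4811 in cHET, and 4561, 4715, 6582 and 6146 in control. Every cKO library was below all others, while control spread widely around cHET. It was 1.47-fold lower than in cHET (log2 -0.56 ± 0.12 SE, adjusted p = 0.0031) and 1.51-fold lower than in control (log2 -0.60, adjusted p = 0.0017). At P60 Insig1 had 484, 437 and 493 reads per base in cKO, 1784, 1838 and 1733 in cHET, and 2060.3, 1983 and 1977 in control libraries. Each group was tight and the cKO libraries lay far below the rest. It was 3.79-fold lower than in cHET (log2 -1.92 ± 0.06 SE, adjusted p = 2e-08) and 4.26-fold lower than in control (log2 -2.09, adjusted p = 1.1e-08). By p it ranked 7 of 16833 genes against cHET and 5 against control. Insig1 (ENSMUSG00000045294) lies on chromosome 5, 28071363 to 28078662.

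Insig2, the other INSIG gene, fell at P21 and did not pass the test at P60. At P21 it had 363, 326, 338 and 321 reads per base in cKO, 371, 451, 425 and 403 in cHET, and 424, 401, 415 and 414 in control libraries. All cKO libraries lay below all others, the nearest cHET library by a small margin. It fell by 0.29 on the log2 scale against cHET (95% interval -0.46 to -0.12, adjusted p = 0.016) and by 0.30 against control (adjusted p = 0.012), and the call against cHET was lost without cHET 2 (adjusted p = 0.055). At P60 it had 168, 137 and 159.6 reads per base in cKO, 171, 220.1 and 141 in cHET, and 141, 198 and 183 in control. These groups overlapped, with a log2 change against cHET of -0.18 (95% interval -0.56 to 0.21, adjusted p = 0.52). The Insig1 level, from the authors' deposited tables, was 3.05 times the Insig2 level in cKO cord at P60, against 10.2 times in cHET and 11.7 times in control. At P21 the deposited tables gave 10.7 times in cKO, 12.9 times in cHET and 13.1 times in control. Insig2 (ENSMUSG00000003721) lies on chromosome 1, 121304353 to 121332589.

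Stard4, a soluble sterol carrier of the cytosol, fell at both ages. At P21 it had 378, 377, 326 and 374 reads per base in cKO, 610.0, 672, 590.2 and 489.8 in cHET, and 493, 457, 701 and 617 in control libraries. No cKO library reached the lowest of the others, and cHET overlapped control. It was 1.62-fold lower than in cHET (log2 -0.69 ± 0.13 SE, adjusted p = 0.0013) and 1.54-fold lower than in control (log2 -0.62, adjusted p = 0.0026). At P60 Stard4 had 43.8, 37.6 and 42.9 reads per base in cKO, 168, 159.9 and 175 in cHET, and 168, 177 and 209.9 in control libraries. The cKO libraries lay far below the rest, 4.02-fold lower than cHET (log2 -2.01 ± 0.12 SE, adjusted p = 6.9e-07) and 4.41-fold lower than control (log2 -2.14, adjusted p = 3.7e-07). Stard4 (ENSMUSG00000024378) lies on chromosome 18, 33199355 to 33213862.

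Npc2, the soluble protein that hands cholesterol to NPC1 inside the lysosome, rose at both ages. At P21 it had 7439, 8631, 8825 and 8360.4 reads per base in cKO, 6605, 6519.9, 6000.15 and 6329 in cHET, and 5669.9, 5919, 5413 and 5856 in control libraries. All cKO libraries lay above all cHET libraries, and these above all controls. It was 1.30-fold higher than in cHET (log2 0.38 ± 0.06 SE, adjusted p = 0.00024) and 1.45-fold higher than in control (log2 0.54, adjusted p = 9.1e-06). At P60 Npc2 had 2756, 2708 and 2325 reads per base in cKO, 1797, 2028 and 1599 in cHET, and 1553.5, 1745 and 1721 in control libraries. All cKO libraries lay above the rest, 1.44-fold higher than cHET (log2 0.52 ± 0.10 SE, adjusted p = 0.002) and 1.55-fold higher than control (log2 0.63, adjusted p = 0.00059). Npc2 (ENSMUSG00000021242) lies on chromosome 12, 84754562 to 84773152.

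Npc1, the membrane protein that receives cholesterol from NPC2, was not called at either age. It had 6659, 6655, 6979 and 6921 reads per base in cKO at P21, 6711, 6392, 6074 and 6172 in cHET, and 6289, 6681, 6083 and 6403 in control. The cKO libraries lay high but overlapped both other groups, with a log2 change against cHET of 0.10 (95% interval 0.00 to 0.21, adjusted p = 0.15). Under quantile normalization the P21 change of Npc1 passed, at 0.14 against cHET (adjusted p = 0.032) and 0.13 against control (adjusted p = 0.05, just under the threshold). At P60 the levels averaged 2974 ± 100.5 in cKO, 3070.0 ± 79.9 in cHET and 3029 ± 171 in control (SD, n = 3 each), and the log2 change against cHET was -0.05 (95% interval -0.17 to 0.08, adjusted p = 0.62). Npc1 (ENSMUSG00000024413, chromosome 18, 12189692 to 12236400) shares 511 of its 11317 exonic bases with Rmc1 on the other strand, listed in the table as 3110002H16Rik, which was not called against cHET (log2 -0.15, adjusted p = 0.18 at P21; -0.06, adjusted p = 0.77 at P60).

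**Figure D2:**
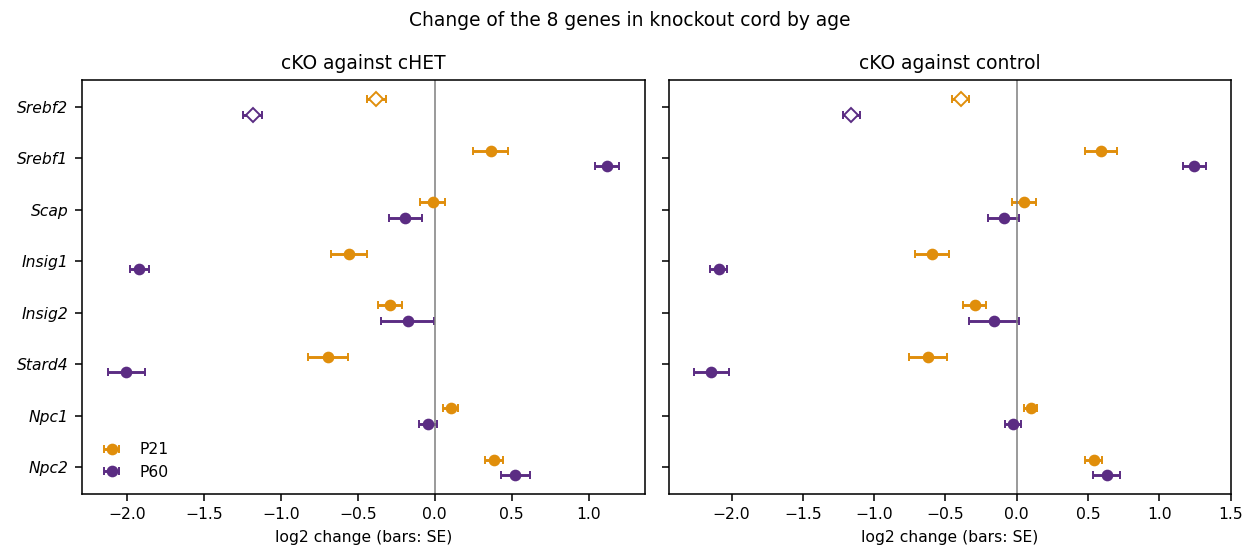
Log2 change of the 8 genes in cKO against cHET (left) and against control cord (right), at P21 (orange) and P60 (purple); filled circles are limma estimates, open diamonds are Srebf2 from the authors' deposited tables, and bars are standard errors. Against cHET, Insig1 lies at -0.56 at P21 and -1.92 at P60, Stard4 at -0.69 and -2.01, and Srebf1 at 0.36 and 1.12, while Scap and Npc1 lie between -0.19 and 0.10.

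No difference between heterozygous and control cord passed the test in these genes. By limma 0 of 7 passed at either age, and 1 gene at each age had an unadjusted p under 0.05. At P21 it was Npc2, at a log2 change of 0.16 (limma, adjusted p = 0.65), with every cHET library above every control library. At P60 it was Insig1, at -0.17 (limma, adjusted p = 0.89), with every cHET library below every control library. The authors' deposited tables called 0 of the 8 genes with q under 0.05, beside 0.193% of all genes at P21 and 0.0827% at P60, and there too 1 gene at each age had an unadjusted p under 0.05. For Srebf2 the deposited tables gave -0.01 (q = 0.998) and 0.03 (q = 0.99991). The other log2 changes of cHET against control lay between -0.04 and 0.23 at P21 and between -0.14 and 0.13 at P60.

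The change in cKO cord was larger at P60 than at P21 for 3 genes. The difference of the log2 changes against cHET, P60 minus P21, was -1.36 ± 0.15 SE for Insig1 (adjusted p = 1.5e-05), -1.31 ± 0.19 for Stard4 (adjusted p = 0.0002) and 0.76 ± 0.15 for Srebf1 (adjusted p = 0.0064). Those 3 of 7 stand beside 2.71% of the 18695 genes tested for this difference. Against control the same 3 passed, at -1.50, -1.52 and 0.65 (adjusted p = 3.8e-06, 2.8e-05 and 0.017), beside 3.80% of all genes. The call of Srebf1 against control was lost without P60 control 3 (adjusted p = 0.059) or P60 cKO 1 (adjusted p = 0.05, not under the threshold). Insig2, Npc1, Npc2 and Scap had differences between -0.18 and 0.14 against cHET, none of them called. For Srebf2 no test of the difference was run, and the values of the authors' deposited tables differ by -0.80 ± 0.09 (SE) against cHET and -0.77 ± 0.09 against control. Age and library kit cannot be told apart in any of these differences. They also cross sex, since P21 groups held both sexes, P60 cKO and cHET mice were male, and P60 controls were older females.

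Other genes of the pathway were counted by role in cKO against cHET cord, with the median log2 change of all tested genes at -0.01 at P21 and 0.00 at P60. Of all tested genes 22.6% were called at P21 and 25.0% at P60, and each list count is to be set beside these shares. Of 11 genes of SREBP processing and sterol sensing (the proteases Mbtps1 and Mbtps2, the erlins, and ubiquitin ligases that act on INSIG or HMG-CoA reductase), 0 passed by limma at either age, with medians of 0.00 and 0.08. At an unadjusted p under 0.05 there were 2 at P21 and 4 at P60, and the authors' deposited tables called 1 and 0. The count of 0 depended on the setting, with 1 call at P21 without cHET 3 or cKO 4 and 2 without cHET 4, and 1 call at P60 without control 2 or cKO 1. Of 10 other settings, 4 kept a count of 0 at P21 and 8 at P60, and the rest gave 1. Against control at P60 1 gene of the list passed, Paqr3, at -0.43 (adjusted p = 0.025), beside 25.9% of all genes. The 4 with the smallest p at P21 were Fbxw7, a ligase component that marks active SREBP for degradation, at -0.21 (adjusted p = 0.05, not under the threshold), Rnf145 at -0.24 (adjusted p = 0.091), Paqr3 at -0.18 (adjusted p = 0.25) and Erlin2 at 0.20 (adjusted p = 0.36). At P60 they stood at -0.16, 0.14, -0.27 and -0.32, none of them called. The proteases that free SREBP stood at 0.08 (Mbtps1) and -0.14 (Mbtps2) at P21, chosen after their values were seen.

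Among 10 lipoprotein receptors and their regulators, 2 rose and 4 fell at each age, with medians of -0.14 at P21 and -0.40 at P60. These calls stand beside 22.6% of all genes at P21 and 25.0% at P60. Mylip, a ubiquitin ligase that is induced by sterol-activated LXR, rose by 1.20 (adjusted p = 4.2e-07) and 1.69 (adjusted p = 4.6e-07). Its level was 773, 874, 752 and 688 reads per base in cKO at P21, against 376, 302, 321 and 342 in cHET. At P60 it was 532, 500.2 and 538 in cKO, against 167, 176 and 143 in cHET, so that the libraries of the genotypes lay apart at both ages. Sort1, a sorting receptor, fell by 0.53 (adjusted p = 0.00011) and 0.64 (adjusted p = 2.2e-05). Lrp1, a receptor for apolipoprotein E, rose by 0.47 (adjusted p = 0.0073) and 0.66 (adjusted p = 4.1e-05), and Vldlr fell by 0.37 (adjusted p = 0.0023) and 0.56 (adjusted p = 0.0011), a pair chosen after their values were seen.

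Of 17 genes of intracellular sterol transport and storage, 4 rose and 4 fell at P21, and 5 rose and 4 fell at P60, with medians of -0.05 and 0.11. The P21 count of 8 was not stable, with 4 calls without cHET 1, cHET 2, cHET 3, cKO 2 or cKO 3, and 5 without cHET 4, cKO 1 or control 4. It was 5 with no filter and 3 when only cKO and cHET libraries were fitted. Which single genes lost their call in these fits is not given here. Over all genes the main fit called 22.6% at P21 and 25.0% at P60, and the P21 counts of 3 and 4 lie near that share. Tmem97, a partner of NPC1 also called the sigma-2 receptor, fell by 0.55 (adjusted p = 0.0003) and 1.22 (adjusted p = 1.9e-06), and its difference between ages was -0.68 (adjusted p = 0.0017). Stard5, a sterol carrier related to Stard4, fell by 0.36 (adjusted p = 0.0079) and 0.59 (adjusted p = 0.0019). Lamp2, a lysosomal membrane protein, rose by 0.38 (adjusted p = 0.00014) and 0.46 (adjusted p = 0.0004). Scp2, a sterol carrier of the peroxisome, rose by 0.19 at P21 (adjusted p = 0.027) and stood at 0.12 at P60 (adjusted p = 0.39). Chosen after their values were seen, Lipa, the lysosomal lipase that frees cholesterol from its esters, rose by 0.34 (adjusted p = 0.033) and 0.95 (adjusted p = 2.7e-06), and Soat1, which esterifies cholesterol for storage, rose by 0.58 (adjusted p = 0.044) and 0.84 (adjusted p = 0.00092). Against control at P21 the authors' test called Lipa (q = 0.017) but not Soat1 (q = 0.13).

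All 20 cholesterol synthesis genes fell against cHET at both ages, with medians of -0.82 at P21 and -1.62 at P60. Against control 19 of the 20 were called at P21 and all 20 at P60, all down, beside 26.9% and 25.9% of all genes. The medians against control were -0.75 and -1.61. Against cHET, Cyp51, Sc5d, Sqle and Hmgcs1 had the smallest p at P21, at -1.05, -0.89, -0.88 and -1.10. At P60 they stood at -1.58, -1.71, -1.88 and -1.93, all called. The values of Hmgcs1, like those of Fdft1 and Tm7sf2, differ between the library table and the authors' deposited tables, where Hmgcs1 stood at -1.15 and -1.91. Of 14 fatty acid synthesis genes tested, with Pnpla3 not tested, 1 rose and 8 fell at P21, and 2 rose and 8 fell at P60, with medians of -0.31 and -0.45. The calls of both synthesis lists stand beside 22.6% of all genes at P21 and 25.0% at P60. Scd1, Acly, Acss2 and Elovl6, which desaturate or elongate fatty acids or make their acetyl-CoA, fell by 0.65, 0.55, 0.75 and 0.63 at P21 and by 1.06, 0.45, 0.89 and 0.48 at P60. In the same libraries Srebf1 rose.

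**Figure D3:**
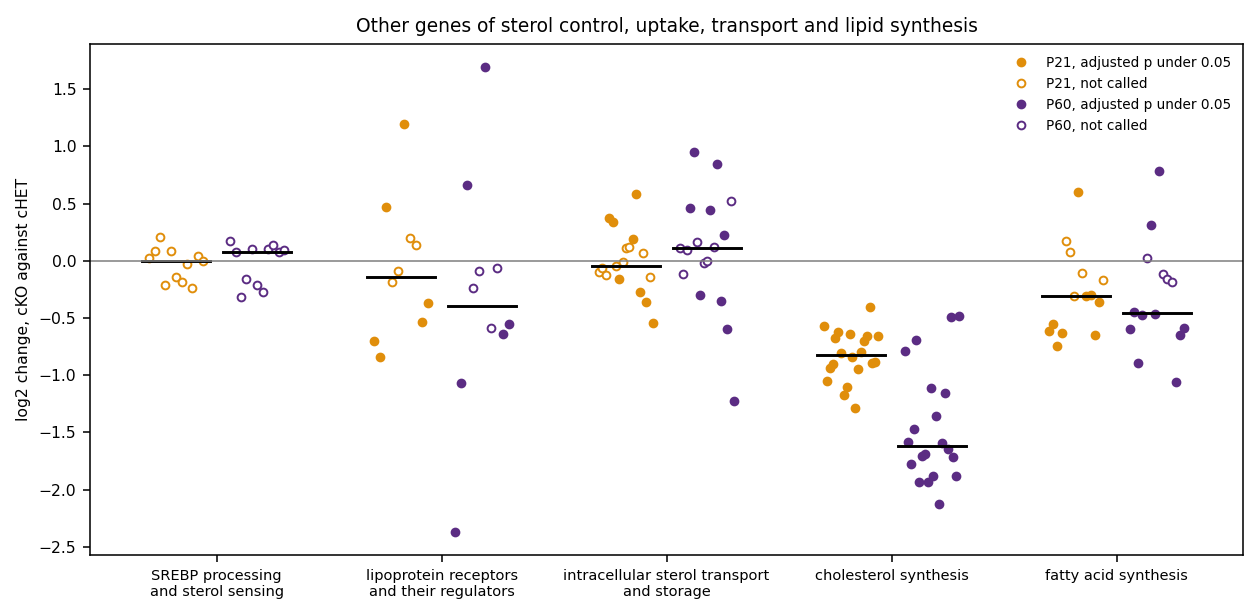
Log2 change in cKO against cHET cord (y axis) of every tested gene of 5 lists of the pathway, at P21 (orange) and P60 (purple); filled points passed an adjusted p of 0.05 in limma, open points did not, and black bars are list medians. In the fit shown, no gene of SREBP processing and sterol sensing is filled, while all 20 cholesterol synthesis genes are filled and below 0 at both ages.

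Insig1, Stard4 and the summed cholesterol synthesis genes were all lowest in cKO cord. The summed level of the 20 synthesis genes was 71859, 75495, 83090.0 and 83109 in P21 cKO libraries, 134615 to 164741 in cHET and 121415 to 150508 in control. At P60 the sum ran 9796 to 10774 for cKO, 32750 to 34683 for cHET and 31132 to 31904 for control. The cKO libraries were lowest at each age in all of these measures, and within the P21 cKO group the library with the lowest sum was not the one with the lowest Insig1 or Stard4. Among 16369 genes tested at both ages, those with the group pattern most like that of Insig1 were Fdft1, which makes squalene, and Stard4, each with a root mean square difference of 0.05 (log2, over 6 group means centred within their age). For Stard4 they were Fdft1 and Insig1, also at 0.05. The library values of Fdft1 used here differ from those of the authors' deposited tables. Next for both was Klhl4, at 0.08 from Insig1 and 0.07 from Stard4, a gene on none of the lists and chosen after its values were seen. The nearest to Npc2 were Capn2 (0.01) and Prex1 (0.02), and those nearest to Srebf1 were Nuf2 (0.03) and Erf (0.04). Map7d2 and 5031439G07Rik were nearest to Scap, Amph and Pdpk1 to Insig2, and 4933434E20Rik and Ift46 to Npc1, all at 0.01. The changes of Scap, Insig2 and Npc1 were small, with SEs against cHET of 0.05 to 0.17. Distances of 0.01 lie below these SEs and do not show a closer likeness than 0.05 does for Insig1.

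**Figure D4:**
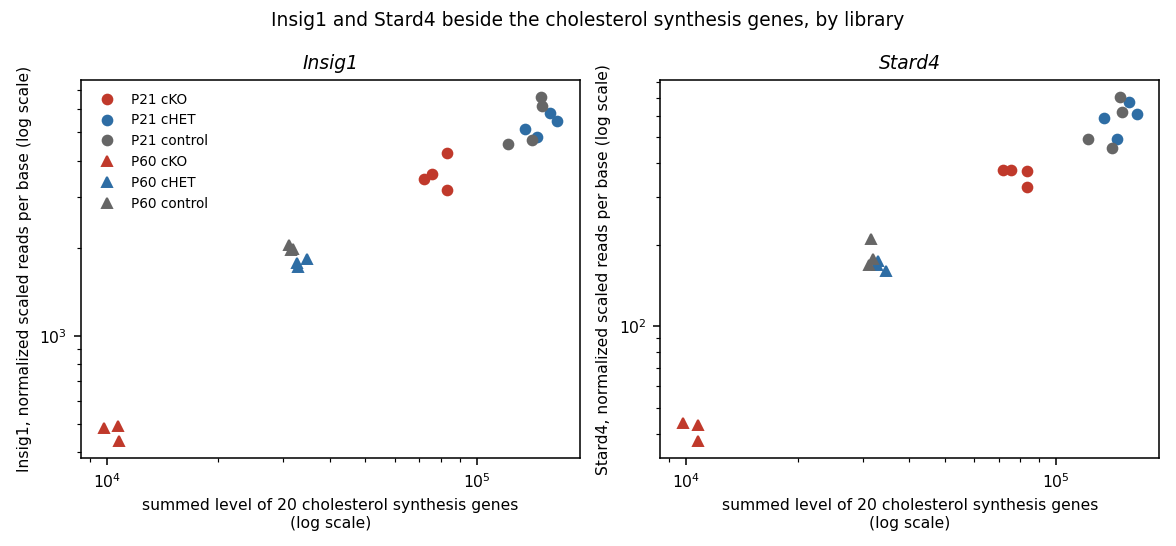
Level of Insig1 (left) and Stard4 (right) in normalized scaled reads per base against the summed level of 20 cholesterol synthesis genes, 1 point per library, both axes logarithmic; circles are P21, triangles P60, with cKO in red, cHET in blue and control in grey. Within each age the cKO libraries lie below the others on both axes, at P60 at 437 to 493 for Insig1 and 37.6 to 43.8 for Stard4, and positions are to be compared within an age.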

How the data were processed

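RNA was extracted with Trizol from flash-frozen spinal cord, per the labels' protocols, with an Illumina TruSeq library kit at P21 and a NEXTflex directional kit at P60. The submitters' processing notes name kallisto 0.43.0, sleuth 0.28.1 and the build GRCm38. The deposited table of library values holds a signal per gene that the authors name, per the labels, scaled reads per base after normalization, with no counts and so no read depth. The authors' deposited comparison tables hold effects and standard errors on a natural log scale (as their means equal those of ln(value + 0.5) in the library table), here divided by ln 2, and the p-values and q-values of the authors' own test. At P21 16483 of 18101 genes of those tables had the same mean as in the library table (tolerance 1e-06), 901 differed and 717, Srebf2 among them, were not in it. Group levels of Srebf2 were solved from the deposited mean and effects.

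Values were tested as log2(value + 0.5), so changes of low genes are understated, with limma 3.58.1 (R 4.3.3), trend on, the 3 genotypes of an age in 1 fit, and the Benjamini-Hochberg adjustment over all tested genes at 0.05. Genes needed a value of 5 in at least 4 libraries (P21) or 3 (P60). Differences between ages came from 1 fit over all 6 groups, where 3 libraries of any age sufficed. Intervals are 95% intervals of limma. The code was tested on simulated data. Replicates were separate mice.

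The text names the 8 genes, the 4 genes of each pathway list with the smallest p in cKO against cHET at P21, Tardbp and Cnp, and for each of the 7 genes the 2 most alike in group pattern. Genes outside this rule are said to be chosen after their values were seen. The 8 genes and all lists were chosen with earlier results of these data known. Some genes that this rule names are not reported here.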

Additional observations from a re-analysis of the deposited data

Results flagged for a closer look

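Srebf1 in P21 control 3 was far from the other controls of its group, at 1019 reads per base where the others had 794 to 797, and its gap was 0.988 of the group's range. Stard4 in P21 cKO 3 was likewise low, at 326 where the others had 374 to 378, with a gap of 0.919 of the range. Chance marks about 1 in 20 groups in this way.

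The change in cKO cord differed between the ages for 3 genes by a test of the difference itself (limma). Against cHET the log2 differences, P60 minus P21, were 0.76 for Srebf1, -1.36 for Insig1 and -1.31 for Stard4. Against control they were 0.65 for Srebf1, -1.50 for Insig1 and -1.52 for Stard4. Age and library kit cannot be told apart in them, and the sexes of the mice also differ between the ages.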

How the results depend on the processing

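The number of the 7 genes called in cKO against cHET was 4 to 5 at P21 and 4 to 4 at P60 over the fits that left out 1 library. Against control it was 5 to 5 and 4 to 4. Calls lost or gained among the 7 genes are given beside their results. No call changed direction. The uncalled values that changed sign were small. Scap in cKO against control at P21 was -0.0303 under quantile normalization. With P60 control 1 and P60 cHET 3 left out together, cHET against control at P60 was -0.0125 for Scap and -0.0095 for Npc1, and the age difference of Insig2 was -0.0409 against cHET and -0.0052 against control.

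Leaving out 1 library gave these ranges. In cKO against cHET at P21 Scap was -0.0870 to 0.0237. In cKO against control Scap was -0.0240 to 0.0867 at P21, and Npc1 was -0.0731 to 0.0022 at P60. In cHET against control at P21 the ranges were -0.1225 to 0.0539 for Insig1, -0.0510 to 0.0436 for Insig2, -0.0261 to 0.1788 for Stard4 and -0.0342 to 0.0173 for Npc1. At P60 they were -0.1490 to 0.1724 for Insig2 and -0.0270 to 0.0482 for Npc1. The age difference of Insig2 was -0.0409 to 0.2805 against cHET and -0.0052 to 0.2382 against control.

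Over all genes, cHET against control at P21 had 2 calls, and 1 call with no filter, with quantile normalization or with sex as a covariate. The authors' deposited test gave 35 there and 14 at P60, where limma gave 3. Leaving out 1 library gave 1 to 26 calls at P21, the highest without cHET 4, and 1 to 4 at P60. No scaling moved the median of all genes by over 0.1.

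No paired analysis was possible because the labels give each library its own mouse number and no number is shared between groups. The limits are 3 or 4 mice per group, an unknown read depth, and whole cord, in which cell types are mixed. Sex differs between P60 control and the other P60 groups, and the mix of sexes differs between the ages. Srebf2 has no library values here, so its spread could not be computed.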
